A study of Mus musculus with 8 samples.

Results

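Macrophage inflammatory proteins are small chemokines that draw leukocytes into injured tissue. The genes described here were Ccl3 (MIP-1α), Ccl4 (MIP-1β), Ccl5 (RANTES), Ccl6, Ccl9 (MIP-1γ) and Ccr1, the receptor that Ccl3, Ccl5, Ccl6 and Ccl9 share. They were taken by symbol from the count tables and make 6 of the 21742 nuclear genes that the tables name. Single CD45+ cells had been sorted from full-thickness skin wounds on the backs of C57BL/6J mice (C57BL/6 in the labels) on days 1, 3, 5 and 7 after wounding. In the diabetic wound group, streptozotocin (STZ), which kills the beta cells of the pancreas, had been given at 120 mg/kg to mice aged 4 weeks, and mice with high blood glucose were then wounded. Control mice were wounded in the same way, and no other allele or agent was named for either group. The wounds of 5 mice were pooled for each library, and each group had 1 library per day, 8 in all. A difference within a day was therefore a difference between 2 pools, and no test was possible within a day. The 95% intervals given below cover counting error only, not the spread between mice.

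Chemokines of this family bind membrane receptors that couple to Gi proteins, and cells with the receptor then move toward the source. Neutrophils, monocytes and macrophages make Ccl3 and Ccl4 within hours of injury, whereas T cells and NK cells are a well-known source of Ccl5. Ccl6 and Ccl9 are rodent chemokines made by myeloid cells.

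The 5 chemokine genes lie together in the mouse genome (GRCm38, GENCODE annotation), within 138.9 kb of chromosome 11 in the order Ccl5, Ccl9, Ccl6, Ccl3 and Ccl4. Ccl5 is at chr11:83525778-83530518, Ccl9 at chr11:83572919-83578636, Ccl6 at chr11:83587882-83593087 and Ccl3 at chr11:83647844-83649355, all on the minus strand. Ccl4 is at chr11:83662584-83664683 on the plus strand, and 13228 bases separate it from Ccl3. Ccl9 and Ccl6 are neighbours, 9245 bases apart. The processed transcript E230016K23Rik overlaps Ccl6 on the other strand, and the strand used in counting is not given in the sources used here, so Ccl6 values may hold some of its reads. Ccr1 is at chr9:123962124-123968692 on the minus strand. Promoters of Ccl3, Ccl6, Ccl9 and Ccr1, 4 of the 6 genes, were matched in RefSeq (GRCm38.p6). Those of Ccl9 and Ccl6 are printed because these genes are neighbours whose levels are compared below. That of Ccl3 is printed because, of the 6 genes, it had the greatest ratio between groups on a single day in whole libraries. Each holds the 250 bases before the RefSeq start, 5′ to 3′ on the gene's strand, and capitals mark motif matches. For Ccl3 the RefSeq start differs from the GENCODE one given above, so its window does not adjoin that position.
Ccl9, chr11:83578637-83578886: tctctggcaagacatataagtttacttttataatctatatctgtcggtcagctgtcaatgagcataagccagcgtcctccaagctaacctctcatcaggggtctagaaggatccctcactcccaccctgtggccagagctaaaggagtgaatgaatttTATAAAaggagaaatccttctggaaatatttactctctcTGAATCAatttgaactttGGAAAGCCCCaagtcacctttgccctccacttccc
Ccl6, chr11:83593088-83593337: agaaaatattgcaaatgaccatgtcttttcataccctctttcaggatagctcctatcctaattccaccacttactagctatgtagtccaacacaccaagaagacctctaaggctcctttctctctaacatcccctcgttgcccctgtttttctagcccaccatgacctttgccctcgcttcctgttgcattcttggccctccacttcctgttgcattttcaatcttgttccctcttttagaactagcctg
Ccl3, chr11:83649379-83649628: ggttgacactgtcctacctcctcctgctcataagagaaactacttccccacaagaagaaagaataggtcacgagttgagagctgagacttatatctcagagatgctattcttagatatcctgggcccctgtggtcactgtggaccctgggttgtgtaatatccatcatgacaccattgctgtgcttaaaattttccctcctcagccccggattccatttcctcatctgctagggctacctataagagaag

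The motifs searched were TATAAA on the gene's strand, and, on both strands, AP-1 (TGANTCA), C/EBP (TTGCNNAA) and the NF-kappaB consensus of 10 letters. In the Ccl9 window, TATAAA lay at -92 to -87, an AP-1 match at -53 to -47 and an NF-kappaB match, on the other strand, at -35 to -26, counted back from the gene's start. No match overlapped another. The windows of Ccl3, Ccl6 and Ccr1 held none of these letters. Among 32851 mouse promoter windows of the same length, 3.899% held the NF-kappaB consensus, 6.75% AP-1, 9.56% C/EBP and 7.59% TATAAA. A match describes the letters alone.

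The tables held 19236522 to 33842509 UMIs (unique molecular identifiers, each a counted RNA molecule) per library. Of 38959 barcodes, 35158 were kept as cells, 3266 to 5436 per library, with a median of 2575 to 8234 UMIs per cell. The control library of day 5 stood apart: 28.6% of its barcodes were left out against 1.00 to 10.8% in the others, and its cells were the deepest. Levels are UMIs of a gene per 1000000 UMIs of the same cells (CPM), and they were not compared between genes. Cell classes were rebuilt from the data by clustering with the 6 genes left out, and a class named "X-like" rests on marker genes. A cluster of 4303 cells stayed unnamed, and 54 fibroblast-like cells were in the sort. The neutrophil-like class had 258 cells in control wounds on day 5 and 772 to 2686 in the other 7 libraries.

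In whole libraries, Ccl3 was the gene with the widest difference between the groups. Its level was 7374, 2605, 848 and 1475 CPM in control wounds on days 1, 3, 5 and 7, and 6148, 4029, 5969 and 2472 CPM in diabetic wounds. The control level was lowest on day 5, where the diabetic level was close to that of day 1. Diabetic wounds were thus at 0.834 times the control level on day 1 (interval 0.827 to 0.840), and at 1.55, 7.04 (6.94 to 7.14) and 1.68 times it on days 3, 5 and 7.

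Ccl4, the near relative of Ccl3, was at 5859, 2130, 989 and 1712 CPM in control wounds and at 5135, 2485, 2653 and 2299 CPM in diabetic wounds. Both groups were highest on day 1, and day 5 again had the widest gap, with a ratio of 2.68 (2.64 to 2.72). Ccr1 was at 938, 640, 342 and 390 CPM in control wounds and at 886, 698, 878 and 370 CPM in diabetic wounds. The diabetic level of Ccr1 on day 5 was 2.57 times the control level (2.51 to 2.63), whereas on the other days the ratio was between 0.945 and 1.09.

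Ccl6 was at 3323, 882, 980 and 1114 CPM in control wounds and at 2438, 1053, 1053 and 904 CPM in diabetic wounds. Ccl9 was at 1806, 589, 1142 and 843 CPM in control wounds and at 1425, 797, 726 and 796 CPM in diabetic wounds. Both were highest on day 1 in either group, and on day 5 they did not share the pattern of Ccl3: the ratio was 1.07 for Ccl6 and 0.635 for Ccl9. Ccl5 was at 201, 625, 129 and 294 CPM in control wounds and at 325, 205, 364 and 416 CPM in diabetic wounds. Its control level peaked on day 3, where diabetic wounds had 0.328 times as much (0.318 to 0.339).

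**Figure D1:**
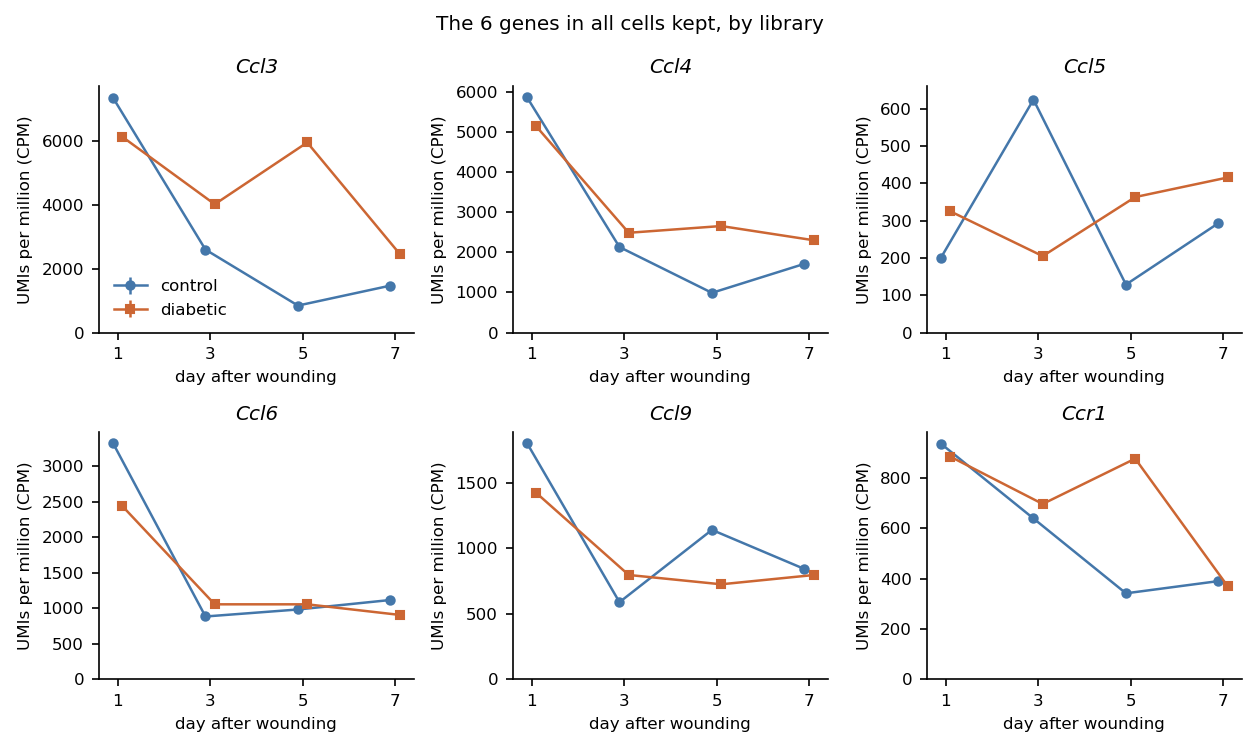
Level of each gene (CPM, linear axis from 0) in all cells kept, against day after wounding, with 1 point per library and 95% Poisson intervals that are smaller than the points. Control wounds are blue circles and diabetic wounds orange squares; on day 5 Ccl3 stood at 5969 CPM in diabetic and 848 CPM in control wounds.

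With the 4 days as 4 pairs, edgeR's quasi-likelihood test called 0 of 12905 genes (0%) between the groups after Benjamini-Hochberg adjustment, and none of the 6. At an unadjusted p under 0.05 there were 1458 genes, and DESeq2 called 84 (0.651%), again none of the 6. The log2 difference of Ccl3 was 0.99 ± 0.54 (SE; adjusted p = 0.484 by edgeR), that of Ccl4 0.52 ± 0.32 (adjusted p = 0.516 by edgeR) and that of Ccr1 0.38 ± 0.31 (adjusted p = 0.608 by edgeR). Without day 5 the log2 difference was 0.38 for Ccl3 and -0.01 for Ccr1. The p-values rest on the spread of the differences between days, since no day had a second pool.

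Across days, over both groups, edgeR again called 0 of 12905 genes (0%), with 2628 at an unadjusted p under 0.05. DESeq2 called 1872 (14.5%), among them 5 of the 6 genes, all but Ccl5. Without the 2 libraries of day 5, edgeR called 2345 of 12899 genes (18.2%) and the same 5, with adjusted p from 0.00424 for Ccr1 to 0.00970 for Ccl9.

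RNA from lysed cells can be counted with other cells, and a measure of its amount was added after the data were seen. S100a8 and S100a9, which neutrophils make in very large amounts, served as the measure. Over monocyte-, macrophage-, dendritic cell- and T cell-like cells they ran from 956 to 1138 CPM in diabetic and from 109 to 201 CPM in control wounds on day 5. The spread between these classes was wide on day 1 too, at 2213 to 3521 CPM in diabetic and 2269 to 3438 CPM in control wounds. The other 4 libraries lay between 699 and 1665 CPM. On day 5 the carried RNA thus moved with the group. For each class, the amount of a gene that this RNA would carry was taken as its neutrophil-like level times the class's share of the neutrophil-like S100a8 and S100a9 level. This gives too much where a class makes S100a8 or S100a9 itself. It could be too much in lymphoid cells as well. For Ccr1 it came to 100.2 to 198.9% of the measured level in NK cell-like cells, where any was measured. In T cell-like cells it came to as much as 122.3%. Levels and ratios less the carried RNA take off the full amount and are rough for that reason. RNA carried the other way, into neutrophil-like cells, was not estimated.

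Ccl3 was highest in neutrophil-like cells, with a median of 9644 CPM over 8 libraries (4050 to 17529). Mast cell-like cells, few and variable, overlapped them at 901 to 16100 CPM over 4 libraries. Next came monocyte-like cells at 2036 CPM (995 to 2809) and macrophage-like cells at 1526 CPM (929 to 2942). The neutrophil-like range did not overlap the monocyte- and macrophage-like ranges, which overlapped each other. With each cell thinned to 1000 UMIs, shallower cells left out, 82.4 to 97.8% of neutrophil-like cells had a Ccl3 UMI, compared with 23.5 to 56.7% of T cell-like cells. In T cell-like cells, 19.05 to 107.5% of the Ccl3 level was the amount that neutrophil RNA would carry, and in dendritic cell-like cells 26.0 to 94.0%. The highest shares were those of diabetic wounds on day 5 (94.0% in dendritic cell-like and 107.5% in T cell-like cells), and the lowest those of control wounds on day 5 (26.0 and 19.05%).

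Neutrophil-like cells also held most of the Ccl3 UMIs of 6 of the 8 libraries. In control wounds their part was 81.8, 19.7 and 44.1% on days 1, 5 and 7, and 37079 of 52858 UMIs on day 3. In diabetic wounds it was 74.5, 73.7, 82.0 and 52.8% on days 1, 3, 5 and 7. On day 5 they held 3.10% of all UMIs in control and 27.9% in diabetic wounds, and macrophage-like cells held 60.4% of the control Ccl3 UMIs. The day 5 difference of 5121 CPM split into 2641 CPM from the shares of the classes and 2480 CPM from the levels within them. A lower share of neutrophil-like cells and a lower level inside them therefore both entered the control value.

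**Figure D2:**
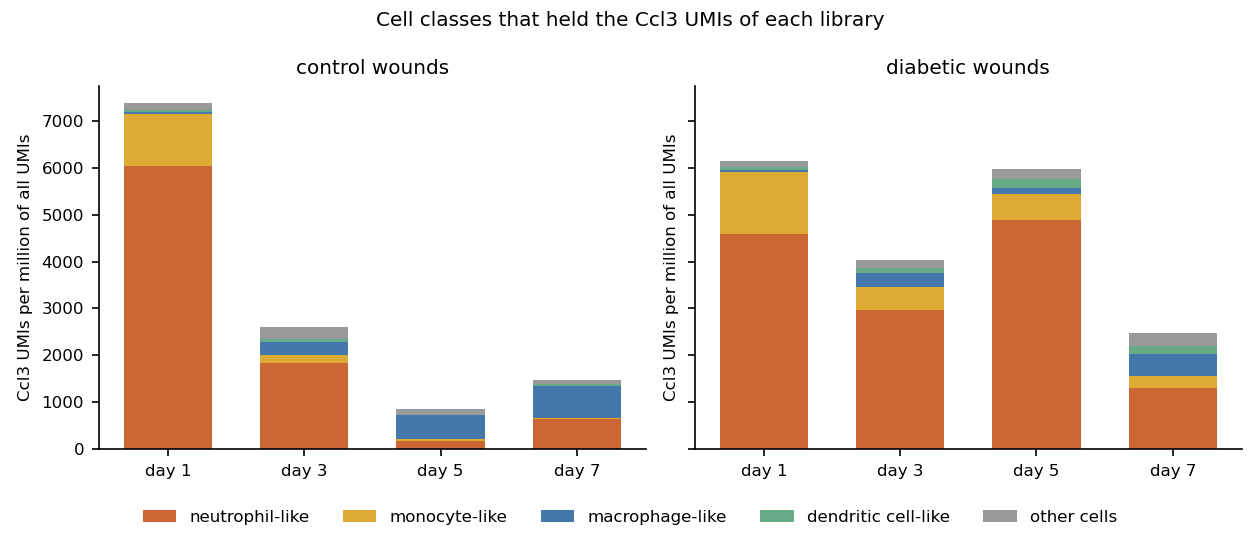
Ccl3 UMIs per 1000000 UMIs of a library (linear axis from 0), divided by the cell class that held them, for control wounds on the left and diabetic wounds on the right. On day 5 the neutrophil-like part was 19.7% of the control bar and 82.0% of the diabetic bar.

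Within neutrophil-like cells, Ccl3 was at 15027, 7861, 5403 and 4050 CPM in control wounds and at 12538, 10411, 17529 and 8876 CPM in diabetic wounds. Control values were lower on each later day, whereas the diabetic value was highest on day 5. The ratios were 0.834, 1.32, 3.24 (3.15 to 3.34) and 2.19. When cells were named singly rather than by cluster, the day 5 ratio was 1.93, from 1268 diabetic and 170 control cells. Neutrophil-like Ccl4 was at 10247, 4327, 1733 and 2029 CPM in control and at 7766, 4463, 7112 and 3952 CPM in diabetic wounds. Its ratios fell in the same order of days as those of Ccl3, at 0.758, 1.03, 4.10 (3.903 to 4.318) and 1.95. In edgeR's test over the 4 days 0 of 9569 genes (0%) were called in neutrophil-like cells, 916 had an unadjusted p under 0.05, and DESeq2 called 45 (0.47%). The log2 differences were 0.85 ± 0.45 for Ccl3 (SE; adjusted p = 0.557 by edgeR) and 0.74 ± 0.48 for Ccl4 (adjusted p = 0.619 by edgeR), and neither was called by either tool. Without day 5 they were 0.39 and 0.17.

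Neutrophil-like cells fell into 5 clusters, and 1 of them, cluster 1, had the most Ccl3. It was NEU-2-like, a subtype with Gm5483, Il1f9 and Acod1, and Il23a, Il1a and Tnf were among its leading genes. Its Ccl3 level was 12924 to 25926 CPM over the 7 libraries with at least 20 of its cells, with a median of 22145 CPM, whereas the medians of the other 4 clusters were 6792 to 9169 CPM. The 18 cells of control wounds on day 5 were unlike the rest, with 4353 CPM of Ccl3, below clusters 2, 3 and 6 of that library, and with 1376 CPM of Ccl5 against 55.8 CPM in diabetic cluster 1 cells that day. Ccl3 was left out of the genes used for clustering, but its level still depends on how the cells were divided, so this is a description. Cluster 1 made up 41.8, 8.85, 6.98 and 3.33% of control neutrophil-like cells on days 1, 3, 5 and 7, and 23.8, 30.0, 45.0 and 29.8% of diabetic ones. Diabetic wounds thus had a smaller share on day 1 and a larger share on the 3 later days.

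Inside cluster 1 the groups were closer, with Ccl3 ratios of 1.01, 0.806 and 1.06 on days 1, 3 and 7; on day 5 the control library had under 20 of its cells. In cluster 2, NEU-1-like with Cxcr2, Csf3r and Lrg1, the ratios were 0.995, 1.05, 1.37 and 3.03. In cluster 6, also NEU-1-like and with immunoglobulin transcripts among its leading genes, they were 0.899, 0.712, 2.50 and 1.65. The day 3 difference of 2550 CPM in neutrophil-like cells split into 4218 CPM from cluster shares and -1668 CPM from levels within clusters. On day 5 the split was 2755 CPM and 9371 CPM, of which 5913 CPM came from cluster 1 with its 18 control cells, and on day 7 it was 2074 CPM and 2752 CPM.

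**Figure D3:**
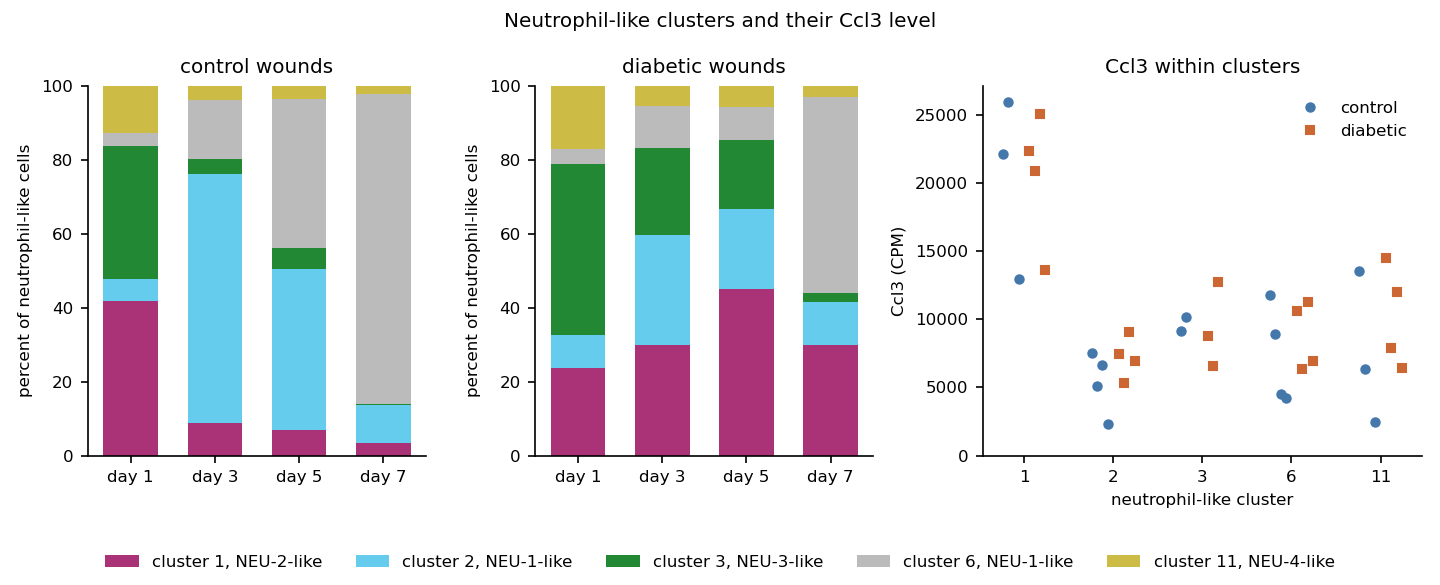
Left and middle, share of each cluster among neutrophil-like cells of a library (percent, stacked to 100); right, Ccl3 level (CPM, linear axis from 0) in each cluster, 1 point per library with at least 20 cells of it. Cluster 1 reached 45.0% of diabetic neutrophil-like cells on day 5, and its Ccl3 points lie between 12924 and 25926 CPM.

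Monocyte-like cells had more Ccl3 in diabetic wounds on each of the 4 days. The levels were 2302, 995, 1292 and 1273 CPM in control and 2730, 1930, 2142 and 2809 CPM in diabetic wounds, with ratios of 1.19, 1.94, 1.66 and 2.21. Less the RNA carried from neutrophils, the ratios were 1.511, 1.705, 1.067 and 2.394. DESeq2 called Ccl3 in this class (log2 difference 0.79, adjusted p = 0.00108), as 1 of 12 genes called (0.125%), whereas edgeR called 0 of 9584 genes (0%), with 759 at an unadjusted p under 0.05 and an adjusted p of 0.291 for Ccl3. MON-1-like cells (cluster 10, with Inhba and Pdpn) had the highest Ccl3 median of the 3 monocyte-like clusters, at 2894 CPM against 1299 and 1433 CPM. On day 3 it held 201 of 707 diabetic but 21 of 458 control monocyte-like cells, and inside it the Ccl3 ratio was 1.031 (0.943 to 1.13). In cluster 5, MON-2-like, which held most of the other cells that day, the ratio was 1.732 (1.658 to 1.81). Ccl4 was higher in diabetic monocyte-like cells on days 1, 3 and 7 by 1.297, 1.417 and 1.418 times, and lower on day 5, at 0.741 times. Less the carried RNA the ratios were 1.462, 1.354, 0.563 and 1.415 on days 1, 3, 5 and 7.

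Macrophage-like cells also had more Ccl3 in diabetic wounds on each day as measured, at 2942, 1502, 1550 and 1684 CPM against 1655, 1284, 929 and 1164 CPM. Less the full carried amount, however, the ratio was 2.90 on day 1, 0.778 on day 3, 0.717 on day 5 and 1.40 on day 7. By that estimate the diabetic level was higher on 2 of the 4 days. The direction on days 3 and 5 depends on the size of the carried amount, which may be too large. In cluster 4, MAC-2-like, the measured ratio on day 3 was 0.773 (0.664 to 0.898). DESeq2 called Ccl3 in this class as measured (log2 difference 0.58, adjusted p = 0.0148), among 33 genes called (0.328%). By edgeR 0 of 10074 genes (0%) were called, 803 had an unadjusted p under 0.05, and the adjusted p of Ccl3 was 0.366. Ccl4 was at 5455, 1998, 1228 and 2850 CPM in diabetic and at 1877, 2067, 1217 and 1988 CPM in control macrophage-like cells, with ratios of 2.906 (2.683 to 3.148), 0.967 (0.939 to 0.995), 1.009 (0.963 to 1.06) and 1.434 (1.408 to 1.46) on days 1, 3, 5 and 7. Less the carried RNA the Ccl4 ratios were 3.934, 0.887, 0.7112 and 1.444.

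Ccr1 was highest in neutrophil-like cells, at a median of 1568 CPM (972 to 2225), and in each of the 8 libraries this was above monocyte-like cells (314 to 592 CPM). Osteoclast-like cells (194 to 410 CPM over 4 libraries) and macrophage-like cells (253 to 456 CPM) followed, with ranges that overlap each other and the monocyte-like one, and NK cell-like cells were lowest at 36.7 to 111 CPM. In neutrophil-like cells Ccr1 was at 1681, 2014, 1432 and 972 CPM in control and 1665, 1471, 2225 and 1020 CPM in diabetic wounds, with ratios of 0.991, 0.731, 1.55 and 1.05. The direction thus differed between days 3 and 5.

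In macrophage-like cells Ccr1 was higher in diabetic wounds on each day, at 456, 440, 422 and 379 CPM against 253, 276, 296 and 317 CPM. The 4 diabetic values lay above the 4 control values, in a class where edgeR called 0% and DESeq2 0.328% of genes, and the ratio was 1.807, 1.597, 1.423 and 1.195 on days 1, 3, 5 and 7. Less the carried RNA it was 2.355, 1.743, 1.085 and 1.415. By cluster the direction was not the same throughout: cluster 8, MAC-3-like, had ratios of 2.256, 1.746 and 1.389 on days 1, 3 and 5 but 0.738 (0.586 to 0.929) on day 7, cluster 13 had 0.915 (0.789 to 1.06) on day 7 and cluster 4 had 0.939 (0.651 to 1.35) on day 3. DESeq2 called Ccr1 in this class (log2 difference 0.56, adjusted p = 0.0191), and edgeR did not (adjusted p = 0.368). In monocyte-like cells the ratios were 1.03, 1.65, 1.71 and 1.03, and 1.079, 1.732, 1.482 and 1.087 less the carried RNA. Its adjusted p there was 0.6096 by edgeR and 0.3505 by DESeq2.

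**Figure D4:**
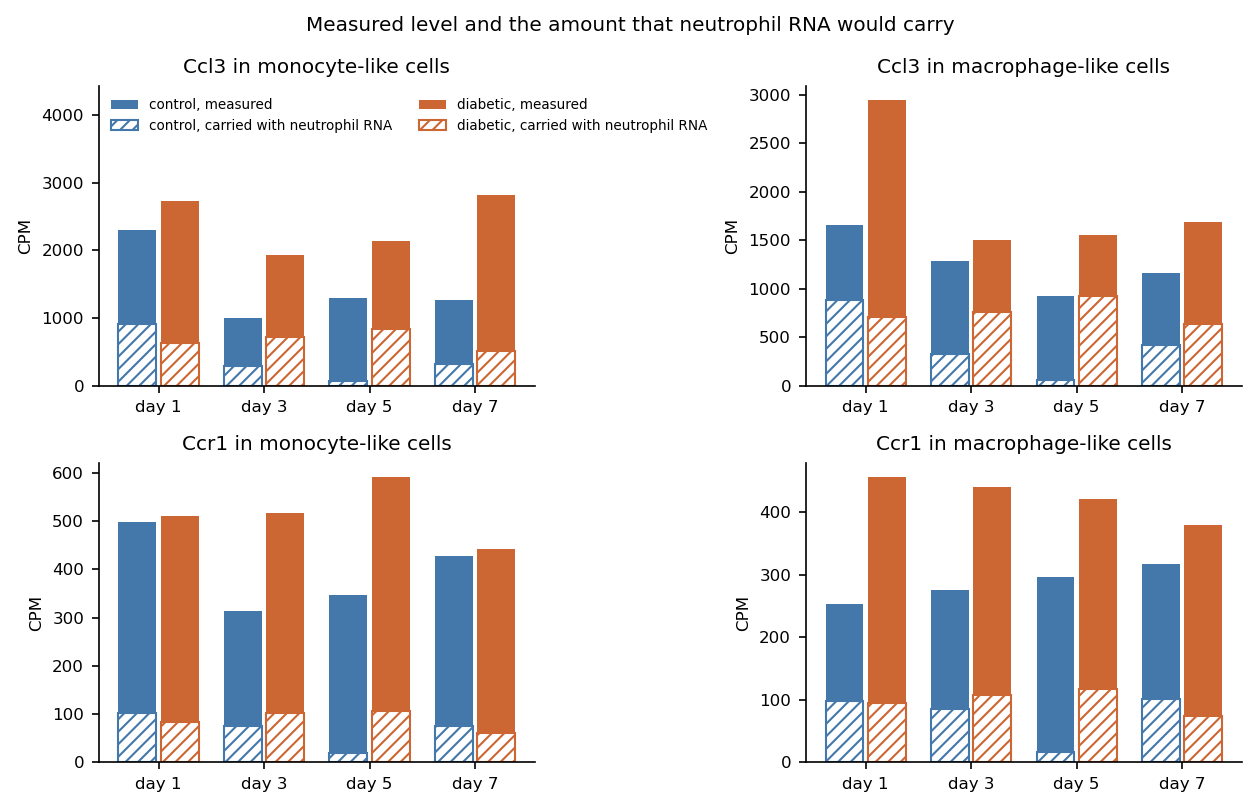
Level of Ccl3 (top) and Ccr1 (bottom) in monocyte-like (left) and macrophage-like cells (right) by day (CPM, linear axes from 0), with the hatched part the amount that neutrophil RNA would carry. For Ccl3 in diabetic macrophage-like cells on day 5 it came to 927 of 1550 CPM, and in control ones to 60.3 of 929 CPM.

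In dendritic cell-like cells Ccl3 was at 183 CPM in control and 957 CPM in diabetic wounds on day 5, a ratio of 5.24. The amount that neutrophil RNA would carry was 47.4 and 899.8 CPM there, and less it the ratio was 0.424. That ratio, too, depends on the size of the carried amount. edgeR called 1 of 9227 genes in this class (0.0108%), Igha, an immunoglobulin heavy chain gene named here after its value was seen, and DESeq2 called 13 (0.141%), none of the 6 by either. In T cell-like cells edgeR called 0 of 8217 genes (0%), with 233 at an unadjusted p under 0.05, and DESeq2 called 0 (0%).

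The level of Ccl5 was highest in NK cell-like cells, at 2611 to 8666 CPM over 6 libraries with at least 20 cells, and next in T cell-like cells, at 591 to 4165 CPM. NK cell-like cells were above T cell-like cells in each of those 6 libraries. The 4165 CPM belonged to control wounds on day 3, where diabetic T cell-like cells had 604 CPM, a ratio of 0.145 (0.132 to 0.159). On days 1, 5 and 7 the control values were 1648, 771 and 702 CPM and the diabetic ones 1741, 1072 and 591 CPM. NK cell-like cells on day 3 also had less Ccl5 in diabetic wounds, 2657 against 8666 CPM, from 21 and 86 cells, and on day 7 they had 2611 against 4786 CPM.

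The T cell-like cells were of 2 clusters. Cluster 9, with Trac, Ctla4 and Icos, had 697 to 5617 CPM of Ccl5, whereas cluster 12, with the gamma delta T cell gene Trdc and with Il17a and Il17f, had 13.8 to 274 CPM. On day 3, cluster 9 made 165 of the 252 control and 58 of the 172 diabetic T cell-like cells, and its Ccl5 level was 5617 against 1701 CPM. Both the mix of T cell-like cells and the level in cluster 9 therefore differed that day. On day 3, T cell-like cells held 41.9% of the control Ccl5 UMIs and 9.85% of the diabetic ones, and NK cell-like cells held 30.7% and 6.75%. Monocyte-like cells, at a lower level but more numerous, held 39.95% of the control and 61.9% of the diabetic Ccl5 UMIs on day 1, and 7.35% and 35.1% on day 3. With cells thinned to 1000 UMIs, 57.1 to 92.5% of NK cell-like cells had a Ccl5 UMI, compared with 1.65 to 13.5% of neutrophil-like cells.

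Among dendritic cell-like cells, Ccl5 was at 640 to 2223 CPM in DC-2-like cells (cluster 16, with the migratory dendritic cell genes Ccr7, Fscn1 and Ccl22) and at 86.8 to 214 CPM in DC-1-like cells, with no overlap. DC-2-like cells of diabetic wounds had more than control ones on day 1, 1572 against 651 CPM from 25 and 26 cells, and less on day 5, 640 against 2223 CPM. The log2 difference of Ccl5 over the 4 days was -0.58 ± 0.48 in T cell-like cells (SE; adjusted p = 0.995 by edgeR; 0.07 without day 3) and -0.40 ± 0.21 in dendritic cell-like cells (adjusted p = 0.865 by edgeR).

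Ccl6 and Ccl9, the neighbours whose promoters are printed above, differed in how they were spread over myeloid cells. Ccl6 was at 1011 to 4817 CPM in monocyte-like and 1135 to 5474 CPM in macrophage-like cells, and the highest value of each was that of control wounds on day 1. Neutrophil-like cells had 1006 to 2047 CPM of Ccl6, and were above both other classes in control wounds on day 3 and in diabetic wounds on days 5 and 7. Ccl9 was at 908 to 3072 CPM in monocyte-like and 899 to 3274 CPM in macrophage-like cells, but at 211 to 950 CPM in neutrophil-like cells. The neutrophil-like level of Ccl9 was below the monocyte-like level in each library. It may hold RNA carried from other classes, which was not estimated. Ccl8, highest by median in macrophage-like cells, reached 793.9 CPM in neutrophil-like cells.

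The pair parted in osteoclast-like cells, a class with Acp5, Ctsk and Mmp9. Ccl9 was at 955 to 1220 CPM over the 4 libraries with at least 20 of them, above neutrophil-like cells in each. Ccl6 was at 107 to 313 CPM there, near NK cell-like cells (109 to 377 CPM). Control wounds had 252 of these cells on day 5, and diabetic wounds had 10.

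On day 1, Ccl6 and Ccl9 were lower in diabetic than in control monocyte-like cells, at 3295 against 4817 CPM and 2400 against 3072 CPM, and lower in macrophage-like cells, at 3582 against 5474 CPM and 2444 against 3274 CPM. On day 3 both were higher in diabetic monocyte-like cells, by 1.377 times for Ccl6 and 1.602 times for Ccl9. Over the 4 days the log2 differences in macrophage-like cells were -0.08 ± 0.14 for Ccl6 (SE; adjusted p = 0.917 by edgeR) and -0.01 ± 0.12 for Ccl9 (adjusted p = 0.995 by edgeR), and without day 1 they were 0.10 and 0.12.

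**Figure D5:**
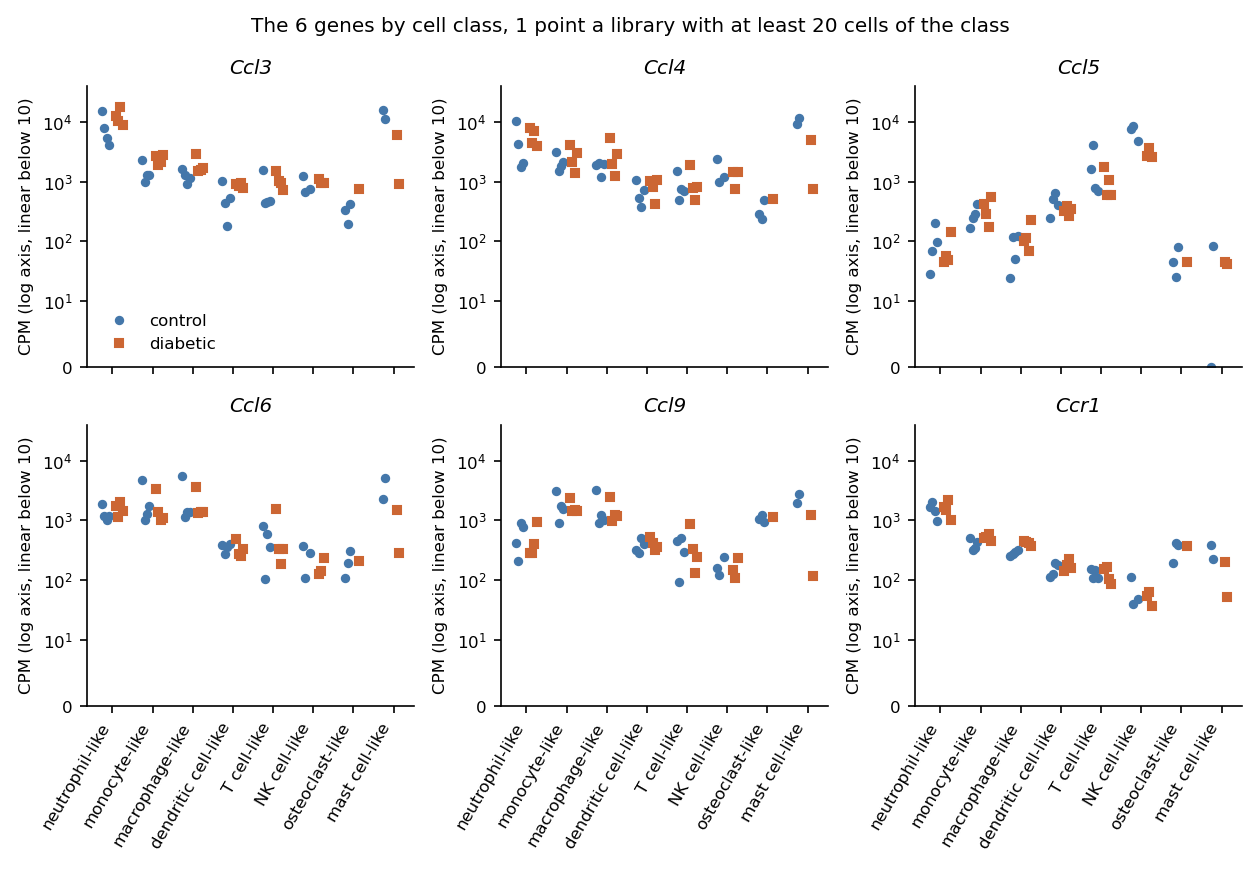
Level of each gene by cell class (CPM, log axis that is linear below 10), with 1 point per library that has at least 20 cells of the class, control in blue circles and diabetic in orange squares. By the median, Ccl3 and Ccr1 were highest in neutrophil-like, Ccl5 in NK cell-like cells; the mast cell-like points rest on 24 or 25 cells each.

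Mast cell-like cells were few, but those of early control wounds had Ccl3 levels as high as neutrophil-like cells. Ccl3 was at 16100 and 11168 CPM in control wounds on days 1 and 3, and at 5959 and 901 CPM in diabetic wounds, from 24 or 25 cells each. In control wounds on day 1, 23 of the 24 cells had a Ccl3 UMI, and the highest cell held 18.7% of the UMIs. On day 5, with fewer than 20 cells per library, the order was the other way. The median was 23.5 Ccl3 UMIs per cell in 10 diabetic cells and 1 in 12 control cells. On day 7 it was 8 in 11 diabetic and 3 in 18 control cells. Carried RNA was not taken off in this class. Its S100a8 and S100a9 level in diabetic wounds on day 3 was 1739 CPM, beside 22779 CPM in neutrophil-like cells. Ccl4 showed the same order as Ccl3 on day 1, with 9226 CPM in control against 4897 CPM in diabetic wounds, and on day 3 it was at 11678 against 754 CPM.

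Within single cells, thinned to 1000 UMIs, Ccl4 was found more often in cells with Ccl3 than in cells without it, in 8 of 8 libraries for neutrophil-like and for monocyte-like cells, and in 6 of 8 for macrophage-like cells. Carried RNA was not taken off. In neutrophil-like cells the share with both was close to that from independent detection. It was 82.56 against 82.29% in diabetic wounds on day 1, and 44.21 against 40.84%, the widest gap, in control wounds on day 5. Ccl9 was found more often in cells with Ccl6 in 8 of 8 libraries for monocyte-like and for macrophage-like cells. Ccr1 was found more often in cells with Ccl3 in 7 of 8 libraries for neutrophil-like but in 2 of 8 for monocyte-like cells. The UMIs were unevenly spread: the 10% of neutrophil-like cells with the most Ccl3 held 27.6 to 41.8% of it in a library. In T cell-like cells the 10% with the most Ccl5 held 69.4 to 96.5% of the Ccl5 UMIs, and 81.9% in control wounds on day 3, so a few cells carried the Ccl5 level of this class.

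Over 55 sums of a class and a library, the genes with profiles most like each of the 6 were found by Pearson's r of log2(CPM + 20) among 5902 genes. These sums share libraries, depth and carried RNA, and r describes them only. Acod1, which makes itaconate, was nearest to Ccl3 (r = 0.95), followed by Cyp4f18 and Kcnj2 (0.92 each). Ccl3 itself was nearest to Ccl4 (0.92), before Osm, the cytokine oncostatin M (0.86), and Acod1 (0.84). Ccl5 was nearest to H2-Q6 (0.93), AW112010 (0.91) and Ifngr1 (0.90), and Ccl6 to Osm (0.85), Cxcl2 and Ptpre (0.84 each). Ccl9 was nearest to Adora2b (0.83) and Abcc1 (0.80), and Ccr1 to Rnf149 (0.94), Rab7 and Sh2b2 (0.92 each). Between the 6 genes, r was 0.92 for Ccl3 and Ccl4 and 0.73 for Ccl6 and Ccl9, and negative for Ccl5 with each of the others.

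Of 14 other ligands and receptors of the family, 11 were tested in whole libraries, and edgeR called 0 of them; their median log2 difference was -0.03, beside 0.02 over all genes. Ccrl2, an atypical receptor, was at 1333, 1031, 601 and 742 CPM in control and at 1087, 1082, 1359 and 724 CPM in diabetic wounds, with the widest gap on day 5. Ccl2, the main monocyte chemokine, was highest on day 1 in both groups, at 1459 and 1307 CPM. Among days, DESeq2 called the ligands Ccl2, Ccl7 and Ccl12, where it called 14.5% of all genes.

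Of 28 genes that act below these receptors (G proteins, receptor kinases, arrestins, Rgs proteins and the Rac module), 27 were tested in whole libraries. By edgeR 0 were called in any class or in whole libraries, and the median log2 difference was 0.06 in whole libraries and -0.04 in macrophage-like cells. DESeq2 called Pik3r5, a subunit of PI3-kinase gamma, in macrophage-like cells (log2 difference 0.44, adjusted p = 0.0391), 1 of the 26 tested there, where 0.328% of all genes were called, and among days it called Gnb2, Grk5, Rac1 and Rac2, 4 of the 27, where 14.5% of all genes were called. The summed level of 14 genes that tissue digestion induces, such as Fos and Jun, was 8445, 14091, 10879 and 14074 CPM in control and 8381, 9620, 9909 and 10245 CPM in diabetic wounds, lower in diabetic whole libraries on each day. Within classes it was higher in diabetic monocyte-like cells on day 1 (6220 against 5858 CPM) and day 7 (6938 against 6744 CPM), and on day 1 in macrophage-like (15267 against 14960 CPM) and dendritic cell-like cells (8097 against 6451 CPM). Its part in the results was not tested.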

How the data were processed

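CD45+ wound cells were profiled as single cells, in 8 libraries of 5 pooled mice each. The authors deposited raw UMI counts per gene and barcode; by their methods UMI-tools handled barcodes and STAR mapped reads to the Ensembl 92 mouse sequence, whereas the submitters' processing notes name mm9, and fastp 0.20.1; coordinates here are from GRCm38 annotation, not from the files. Barcodes are serial numbers, so barcodes shared between libraries could not be counted. Barcodes passed at more than 200 genes with a mitochondrial share below 20%, which left more cells than the total in the study's text. The study's own cell numbers by cluster and library also add up to far more than that total. Clustering used scanpy 1.11.5 and leidenalg 0.10.2 (2000 variable genes without the chemokine lists, 10 components, 30 neighbours, resolution 0.8, total UMIs regressed out). Scrublet called 68 cells (0.193%), too few for the caller to have worked, and doublets were kept. Classes with fewer than 20 cells in a library were left out there. UMIs summed per class and library were tested with edgeR 4.0.16 (TMM, filterByExpr, day as a block, R 4.3.3) at an adjusted p of 0.05. DESeq2 1.42.0 was an alternative at the same threshold. The edgeR test was also run on simulated counts with a fixed spread and no day effect. That run does not show its power in these data. Intervals are exact and 95%. Other alternatives were RLE scaling, no low-count filter, other cell filters, resolutions 0.4 and 1.6, cells named singly, and each day left out; the level less carried RNA was added after seeing the data. Genes named were the 6, list genes past the threshold and the 3 most alike in profile. The 6 genes and the lists were chosen with earlier results of these data known. Some list genes and similar profiles are not reported here.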

Additional observations from a re-analysis of the deposited data

Results flagged for a closer look

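The ratio of diabetic to control wounds lay on opposite sides of 1 on different days for each of the 6 genes in whole libraries. Between the highest and the lowest day, the ratio changed by 8.443 times for Ccl3 and 3.059 times for Ccl4 (day 5 against day 1), 8.601 times for Ccl5 (day 5 against day 3), 1.628 times for Ccl6 (day 3 against day 1), 2.132 times for Ccl9 (day 3 against day 5) and 2.718 times for Ccr1 (day 5 against day 1). With 1 library per group and day, these differences between days were not tested.

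The barcodes left out of the control library of day 5, which only an alternative with every barcode kept used, still held UMIs of the 6 genes. Their levels were 684.5 CPM for Ccl3, 995.9 CPM for Ccl4, 87.0 CPM for Ccl5, 1518 CPM for Ccl6, 968.4 CPM for Ccl9 and 176.3 CPM for Ccr1.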

How the results depend on the processing

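Of 510 log2 differences of the 6 genes under alternatives, 463 kept direction and side of the threshold, 8 newly passed it and 39 changed direction. Genes called between groups with DESeq2 numbered 84 in whole libraries, 45 in neutrophil-like, 12 in monocyte-like, 33 in macrophage-like and 13 in dendritic cell-like cells, and 1872 among days. Without a low-count filter edgeR called 1, 141, 124, 156 and 122 in the same order, 30 in T cell-like cells and 430 among days. Cells named singly gave 2 in neutrophil-like and 0 in dendritic cell-like cells, no regression 3 in monocyte-like and 2 in macrophage-like cells, and resolution 0.4 or chemokine genes in the clustering 1 each in macrophage-like cells. The macrophage-like class at resolution 0.4 held other cells than the main one, as described below. Without the day block, which paired the groups by day, dendritic cell-like cells had 0; it changed no other count. Leaving out each day gave 0 to 1 genes in whole libraries, 0 to 2345 among days (2345 without day 5), 0 to 12 in neutrophil-like (12 without day 1), 0 to 13 in monocyte-like (13 without day 3), 0 to 3 in macrophage-like and 0 to 4 in dendritic cell-like cells. The cause of these changes was not tested.

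Log2 differences that changed direction were, with cells named singly and with no regression, Ccl5 (0.6186 and 0.6184), Ccl9 (0.0679 and 0.05596) and Ccr1 (-0.07507 and -0.1253) in neutrophil-like cells and Ccr1 (0.2602 and 0.3418) in T cell-like cells. With cells named singly, so did Ccl9 in macrophage-like (0.1105) and dendritic cell-like cells (-0.1331), and with no regression Ccl6 in macrophage-like (0.06306) and Ccl5 in T cell-like cells (0.8565). With no regression, however, the cells with Trac, Ctla4 and Icos fell in a cluster named NK cell-like (2018 cells) and the T cell-like class was the Trdc and Il17a cluster alone (965 cells), so its values there describe other cells. Chemokine genes in the clustering gave Ccl6 0.02447 and Ccl9 0.004186 in macrophage-like cells, resolution 0.4 gave Ccl9 0.002954 there, and no day block gave Ccl9 -0.07647 in monocyte-like cells. At resolution 0.4, however, a cluster of 3741 cells with Col1a1, Ccl8 and Retnla among its leading genes was named fibroblast-like. The macrophage-like class was then 1 cluster of 6666 cells, with Gm26917 among its leading genes, so its values at that resolution describe other cells.

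With each day left out, log2 differences in whole libraries ran from -0.1085 to 0.9243 for Ccl5, -0.1856 to 0.08501 for Ccl6, -0.3292 to 0.005674 for Ccl9 and -0.00893 to 0.5406 for Ccr1. In neutrophil-like cells they ran from -0.4246 to 0.283 for Ccl5, -0.3207 to 0.07317 for Ccl9 and -0.1621 to 0.4145 for Ccr1. In monocyte-like cells they ran from -0.02816 to 0.6811 for Ccl5 and -0.2038 to 0.1347 for Ccl9. In macrophage-like cells they ran from -0.1898 to 0.09678 for Ccl6 and -0.09608 to 0.1242 for Ccl9, and in dendritic cell-like cells from -0.1219 to 0.3334 for Ccl9. In T cell-like cells they ran from -0.03827 to 0.3793 for Ccl4, -0.9697 to 0.06836 for Ccl5, -0.3086 to 0.7599 for Ccl6, -0.4652 to 0.7573 for Ccl9 and -0.307 to 0.0669 for Ccr1. By Spearman's rho 11 of the 18 genes most alike in profile stayed among the nearest 3.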
